A study of Homo sapiens with 12 samples.

Results

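The 78 protein-coding genes named *MRPL* or *MRPS* with a number are named for the proteins of the mitochondrial ribosome. They were chosen by symbol, from the rows of the count table whose Ensembl identifier GENCODE v44 assigns to such a gene, and so without regard to any measured value. They are 78 of 58302 rows, 49 named *MRPL* and 29 named *MRPS*. By role, 51 belong to the large subunit and 26 to the small subunit. The large subunit includes *MRPS18A* and *MRPS30*, which kept the names of small subunit genes. *MRPS36* was put in neither, since its product is known as a component of the oxoglutarate dehydrogenase complex. Of the 78 genes, 77 were among the 17188 genes that passed the filter on low counts.

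The mitochondrial ribosome translates the few proteins that mitochondrial DNA encodes, all of them parts of the respiratory chain and ATP synthase. Its own proteins are made from nuclear genes and imported. Its design comes from bacteria, and tetracyclines such as doxycycline (Dox), which bind bacterial ribosomes, can also slow mitochondrial translation. The data here are RNA levels and do not measure translation.

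RNA was sequenced from MIB1-iKO cells, a clonal line made from NCIH838 lung cancer cells that carries a guide RNA against *MIB1* and a Cas9 that Dox switches on. All cells were held for 3 days in 50 nmol/L LDN, a BMP receptor inhibitor, and the MIB1 KO cells, but not the MIB1 WT cells, also had 0.5 μg/mL Dox. They then received 10 ng/mL BMP4 for 24 hours, together with LDN (BMP-off) or after its washout, with DMSO (BMP-on). The 4 groups are therefore named as MIB1 WT or MIB1 KO, each with BMP-off or with BMP-on, and each had 3 libraries. All KO cells and no WT cells had Dox, so exposure to Dox, Cas9 activity and loss of MIB1 cannot be told apart in any comparison of KO with WT.

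Libraries held 19124010 to 29498000 counts. *MIB1* itself lay between 144 and 176 CPM (counts after scaling to a common library size) in the 6 WT libraries and between 31.0 and 34.4 CPM in the 6 KO libraries. The epithelial keratins *KRT8* and *KRT18* were at medians of 143 and 153 CPM over the 12 libraries, whereas *KRT19* did not exceed 0.10 CPM. The lung lineage factor *NKX2-1* did not exceed 0.03 CPM, and the leukocyte marker *PTPRC* had no count. KO BMP-off replicate 2 had the strongest trend with base composition, and transcripts rich in G and C were low in it. Weaker trends ran in other libraries, some of the same sign and some of the opposite sign, and are given below. The strongest of the opposite sign was in KO BMP-off replicate 3, with a Spearman's rho of 0.58 over all genes against −0.60 in replicate 2. For the BMP response of KO cells, values without KO BMP-off replicate 2 are also given.

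Many housekeeping mitochondrial genes are driven from short GC-rich promoters that bind NRF1, ETS family factors such as GABP, and YY1. RefSeq windows of 300 bases, from 250 before to 50 after a start site, were found for 69 of the 78 genes and searched on both strands for the letters GCGCNTGCG (NRF1), CCGGAAG (ETS), AAGATGGC (YY1) and CACGTG (E-box). ETS letters were present at 30 of the 69 genes (43.5%), against 12.2% of all 27305 symbols with a window and 22.3% of the protein-coding genes tested here. The YY1 letters were present at 21 genes (30.4%, against 3.52% and 6.41%). For NRF1 it was 12 genes (17.4%, against 9.01% and 16.9%), and for the E-box 9 genes (13.0%, against 8.77% and 12.6%). No ETS match shared letters with a YY1 match. At least 1 of the 4 was found at 50 of the 69 genes (72.5%), against 27.4% of all symbols and 45.9% of the protein-coding genes tested. These are matches of letters and do not show that a factor binds.

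The promoters of 4 members are shown, on GRCh38.p14 and in the direction of transcription, with matched letters in capitals. *MRPL44* and *MRPL11* had the smallest p for KO against WT with BMP-on. *MRPS12* had the smallest p for the BMP response in KO cells. *MRPL20* was added after the search because its window held 3 of the 4 motifs, the most found, as did those of 5 other members. Its ETS letters begin 44 and 21 bases before the start site, its YY1 letters 15 bases and its NRF1 letters 32 bases after it. In *MRPS12* the ETS letters begin 5 bases and the YY1 letters, on the other strand, 212 bases before the start site. The windows of *MRPL44* and *MRPL11* held none of these letters.
MRPL44, chr2:223957213-223957512, plus strand: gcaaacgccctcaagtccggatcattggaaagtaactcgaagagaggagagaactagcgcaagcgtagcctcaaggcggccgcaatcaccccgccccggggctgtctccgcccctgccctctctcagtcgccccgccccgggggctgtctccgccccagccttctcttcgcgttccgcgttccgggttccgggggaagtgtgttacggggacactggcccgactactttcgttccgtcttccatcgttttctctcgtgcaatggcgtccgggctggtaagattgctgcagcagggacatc
MRPL11, chr11:66438799-66439098, minus strand: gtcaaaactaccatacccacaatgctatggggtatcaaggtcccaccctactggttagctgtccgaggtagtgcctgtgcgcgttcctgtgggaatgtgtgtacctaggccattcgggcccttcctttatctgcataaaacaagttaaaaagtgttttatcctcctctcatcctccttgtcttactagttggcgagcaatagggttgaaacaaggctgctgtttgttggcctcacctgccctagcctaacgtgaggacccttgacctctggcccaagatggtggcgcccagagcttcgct
MRPS12, chr19:38930694-38930993, plus strand: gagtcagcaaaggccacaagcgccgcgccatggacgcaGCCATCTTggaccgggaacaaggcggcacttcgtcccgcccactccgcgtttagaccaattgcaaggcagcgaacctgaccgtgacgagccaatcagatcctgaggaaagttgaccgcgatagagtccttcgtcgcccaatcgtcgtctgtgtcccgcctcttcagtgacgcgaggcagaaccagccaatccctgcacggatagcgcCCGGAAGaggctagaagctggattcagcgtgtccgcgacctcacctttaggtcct
MRPL20, chr1:1407244-1407543, minus strand: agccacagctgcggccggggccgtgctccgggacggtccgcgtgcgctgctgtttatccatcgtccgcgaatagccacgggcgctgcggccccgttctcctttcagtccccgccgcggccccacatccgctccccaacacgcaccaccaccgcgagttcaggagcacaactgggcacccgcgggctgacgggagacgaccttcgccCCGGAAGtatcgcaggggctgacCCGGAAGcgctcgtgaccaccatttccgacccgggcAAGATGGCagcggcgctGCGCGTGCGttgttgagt

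Mitochondrial ribosomal protein genes were well expressed in these cells. Per length of transcript, the median of the 77 tested members was 33.3 RPKM, against 8.73 RPKM for the 12706 protein-coding genes tested. The median was 32.1 RPKM for the large subunit and 38.6 RPKM for the small subunit. It was 38.6 RPKM for the 45 members classed under families shared with bacteria and 28.1 RPKM for the 31 classed as mitochondria-specific. The latter class includes *MRPS18B*, although that protein is a relative of bacterial S18.

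*MRPS35*, a mitochondria-specific protein of the small subunit, stood highest at 351 ± 24.1 RPKM (SD, n = 12), with a range from 323 to 403 RPKM. The next were *MRPL24* at 158 ± 8.47 RPKM and *MRPL3* at 141 ± 6.09 RPKM, both core proteins of the large subunit with bacterial relatives. The range of *MRPS35* did not touch that of *MRPL24* (143 to 171 RPKM), whereas *MRPL24* and *MRPL3* (135 to 154 RPKM) overlapped. The lowest tested members were *MRPL23*, a protein of the large subunit near the exit tunnel, at 2.94 ± 0.457 RPKM, and *MRPS17*, a small subunit protein, at 4.23 ± 0.291 RPKM. *MRPS24* was below the filter, with 2 to 8 counts per library and 63 in all. Its exons overlap those of the read-through gene *URGCP-MRPS24* on the same strand, and how the counting treated reads in that overlap is not given in the sources used here. Exons of 40 members overlap another gene, on the opposite strand for 29 and on the same strand for 15, and whether the counting used strand is not given either.

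**Figure D1:**
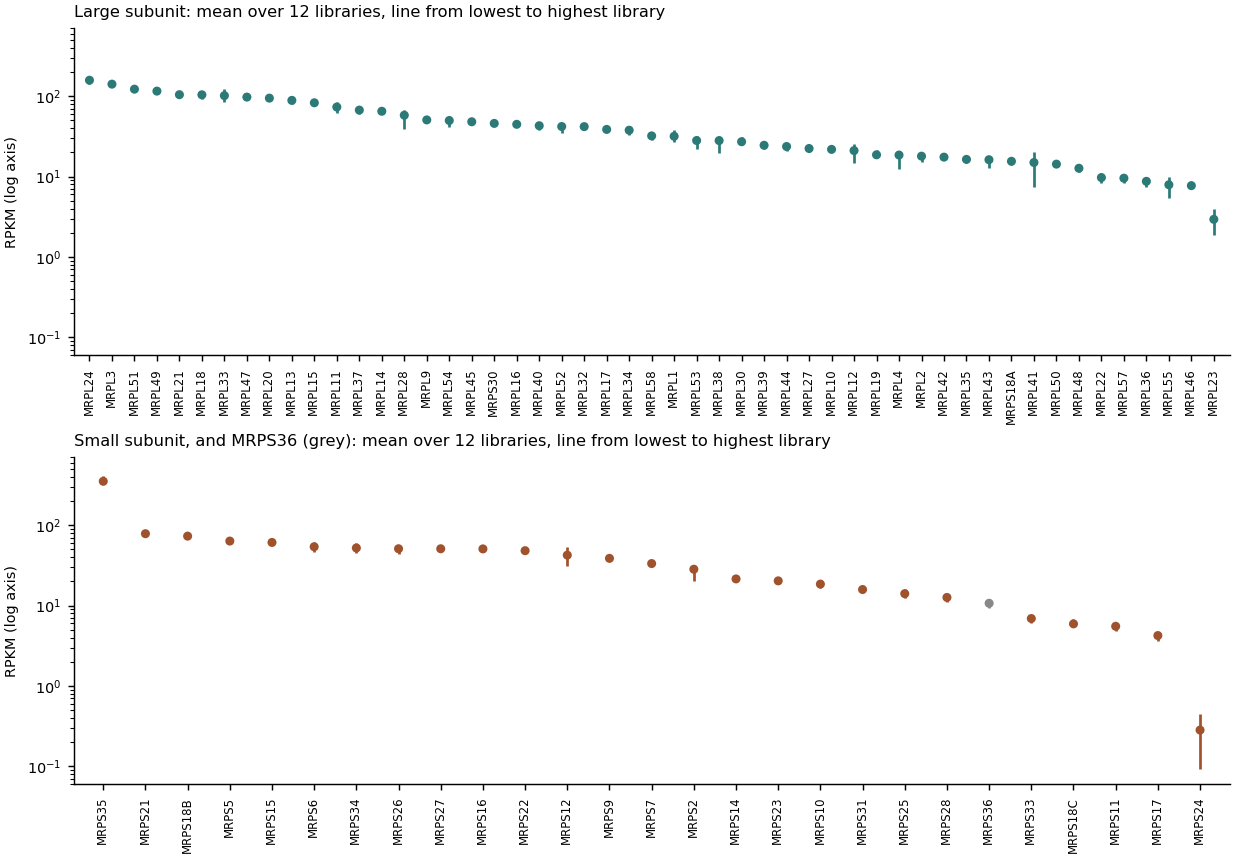
Mean RPKM of each of the 78 genes over the 12 libraries (points, log axis) with a line from the lowest to the highest library. Genes are ordered by mean within the large subunit (upper) and the small subunit (lower, with MRPS36 in grey). MRPS35 is highest at 351 RPKM and the untested MRPS24 lowest at 0.283 RPKM.

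As a share of all counts the members did not separate the groups. They took 0.572%, 0.611% and 0.576% of the counts in MIB1 WT with BMP-off and 0.574%, 0.555% and 0.580% in MIB1 WT with BMP-on. In MIB1 KO the share was 0.584%, 0.586% and 0.568% with BMP-off and 0.576%, 0.578% and 0.589% with BMP-on. The group means were 0.586% ± 0.0214, 0.570% ± 0.0131, 0.579% ± 0.00988 and 0.581% ± 0.00699 (SD, n = 3), and all 4 groups overlapped. In bulk RNA, a change in the number of cells of a kind and a change in RNA per cell cannot be told apart.

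**Figure D2:**
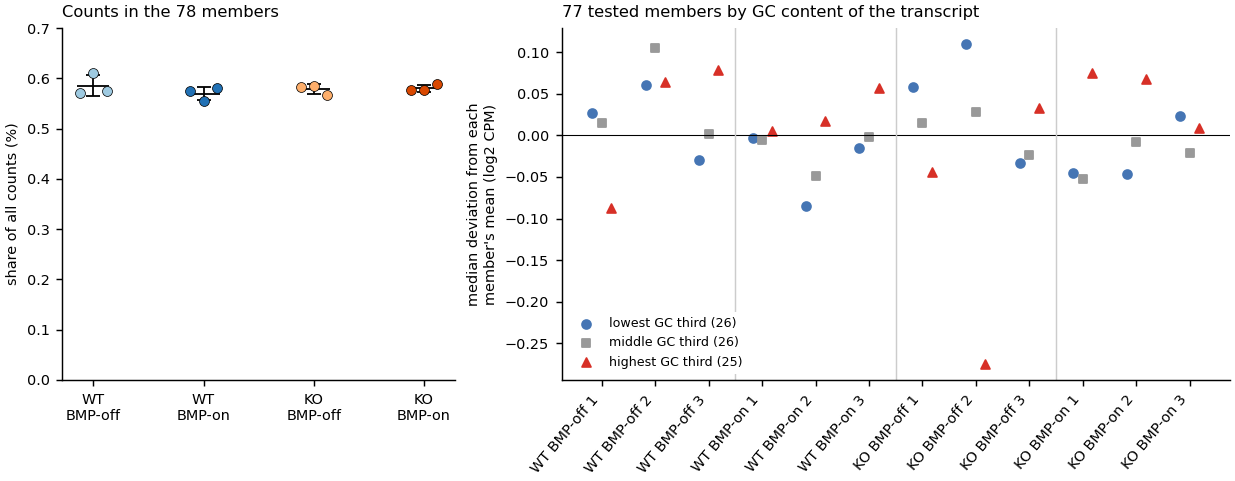
Left, share of all counts taken by the 78 genes in each library (points) with the group mean and SD (n = 3), from 0.555% to 0.611%. Right, for each library, the median deviation of the 77 tested genes from their own mean over the 12 libraries (log2 CPM), in 3 classes of transcript GC content. In KO BMP-off 2 the 25 genes of highest GC content are at −0.27 and the 26 of lowest GC content at 0.11.

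The comparison of KO with WT asked whether 3 days of Dox with loss of MIB1 changed these genes. None of the 77 members passed the test in either BMP state. With BMP-on, 0 of 77 were called, that is, had an adjusted p of 0.05 or less (edgeR quasi-likelihood test, Benjamini-Hochberg), where 3.67% of all genes tested were called, and 6 of 77 (7.79%) had an unadjusted p under 0.05, against 13.8% of all genes. With BMP-off, 0 of 77 were called, where the share over all genes was 0.0407%, and again 6 had an unadjusted p under 0.05, against 10.2% of all genes. The median log2 fold change of the members was 0.001 with BMP-on and −0.038 with BMP-off, beside 0.002 and −0.009 over all genes tested.

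The libraries were precise enough to bound most members. The 95% interval of the log2 fold change lay within ±0.5 (1.41-fold) for 76 of 77 members with BMP-on and for 74 of 77 with BMP-off. The exceptions were *MRPL41* with BMP-on and *MRPL23*, *MRPL4* and *MRPL41* with BMP-off. The intervals reached at most 0.67 with BMP-on and −0.74 with BMP-off, both for *MRPL41*, a mitochondria-specific protein of the large subunit. Libraries of WT and KO did not overlap for 17 of 77 members with BMP-on and for 8 of 77 with BMP-off, and over all genes tested for 23.6% and 11.7%.

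**Figure D3:**
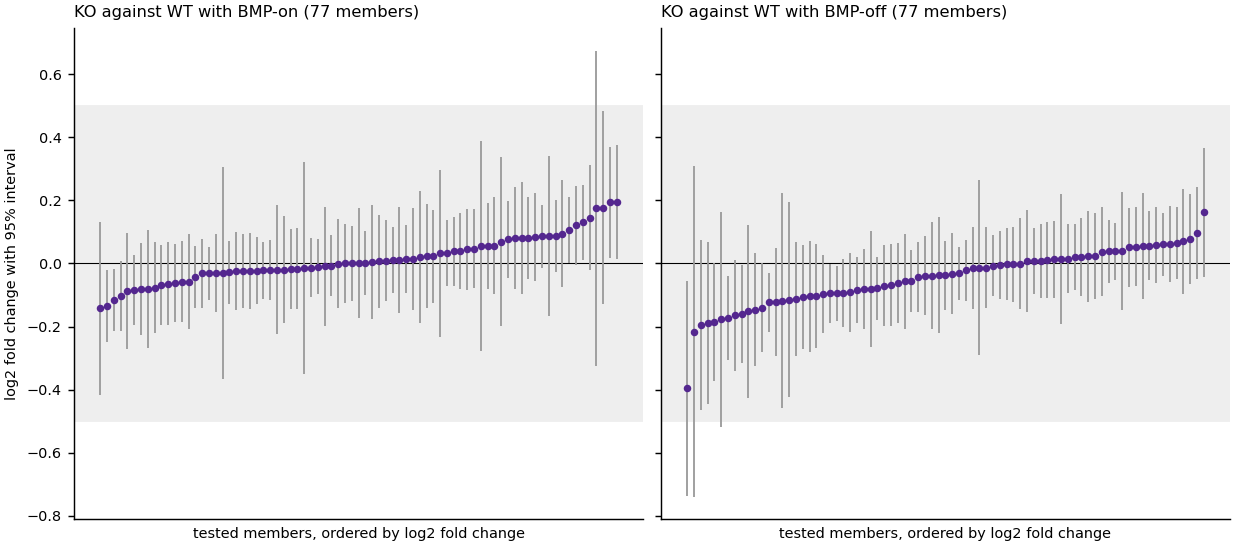
Log2 fold change of MIB1 KO with Dox against MIB1 WT without Dox for the 77 tested members, with BMP-on (left) and BMP-off (right), each ordered by size with its 95% interval. The grey band marks ±0.5. All but 1 interval with BMP-on and all but 3 with BMP-off lie within it.

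Over the 77 members the log2 fold change ran from −0.14 (*MRPL36*) to 0.19 (*MRPS12*) with BMP-on. With BMP-off it ran from −0.40 (*MRPL23*) to 0.16 (*MRPS18C*). It was positive for 40 and negative for 37 members with BMP-on, and for 27 and 50 with BMP-off. The 2 members with the smallest p in each state were all lower in KO. *MRPL44*, a large subunit protein with an RNase III-like fold, was at 41.0, 40.8 and 41.3 CPM in MIB1 WT with BMP-on and at 36.0, 36.9 and 39.1 CPM in MIB1 KO with BMP-on. The KO libraries were lower without overlap, by −0.14 ± 0.05 on the log2 scale (SE), and the difference did not pass (edgeR quasi-likelihood test, Benjamini-Hochberg adjusted p = 0.242). *MRPL11*, at the base of the large subunit stalk that recruits translation factors, was at 115, 113 and 118 CPM in WT and at 109, 102 and 108 CPM in KO. These libraries did not overlap either, with a log2 fold change of −0.12 ± 0.05 (edgeR, Benjamini-Hochberg adjusted p = 0.245).

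In the BMP-off state, *MRPS25*, a mitochondria-specific small subunit protein, was at 62.5, 70.8 and 59.3 CPM in WT and at 54.9, 57.2 and 58.7 CPM in KO. The log2 fold change was −0.17 ± 0.06 (edgeR quasi-likelihood test, Benjamini-Hochberg adjusted p = 0.397). *MRPS16*, a small subunit protein of a bacterial family, was at 128, 141 and 136 CPM in WT and at 124, 124 and 124 CPM in KO, a log2 fold change of −0.12 ± 0.04 (edgeR, Benjamini-Hochberg adjusted p = 0.398). Both were lower in every KO library than in any WT library, without passing the test.

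The BMP response of WT cells, BMP-on against BMP-off, held 2 members that fell and 0 that rose. Over all genes tested, 2.01% fell and 1.91% rose. *MRPL11* was at 128, 137 and 128 CPM with BMP-off and at 115, 113 and 118 CPM with BMP-on. *MRPS6*, a small subunit protein of a bacterial family, was at 55.9, 59.0 and 53.7 CPM with BMP-off and at 49.9, 45.0 and 48.9 CPM with BMP-on. In both, every BMP-on library was below every BMP-off library. *MRPL11* fell by 0.18 ± 0.05 on the log2 scale (adjusted p = 0.0336) and *MRPS6* fell by 0.23 ± 0.06 (adjusted p = 0.0407, edgeR quasi-likelihood test, Benjamini-Hochberg). Neither call was firm, since leaving out 1 library changed the count of calls in WT cells to between 0 and 4. Exons of *MRPS6* overlap those of *SLC5A3* on the same strand, a transporter gene at 0.03 in this comparison (adjusted p = 0.884).

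The BMP response of KO cells held 8 called members, 5 that rose and 3 that fell. Both directions together are 10.4% of the 77. Over all genes tested, 11.1% rose and a further 10.9% fell, so in this fit the members were called less often than all genes. That contrast did not hold with the GC correction described below. With it 24.7% of the members were called, against 10.6% of all genes higher and a further 14.2% lower. An unadjusted p under 0.05 (edgeR quasi-likelihood test) was found for 22 of 77 members (28.6%), against 35.5% of all genes. The median log2 fold change of the members was −0.003, beside 0.006 over all genes. By subunit, 3 of 51 large subunit and 2 of 25 small subunit members rose, and 2 and 1 fell. None passed the adjusted p together with a log2 fold change of 1 or more in size in any of the 5 comparisons. Over all genes, 0.425% passed both in WT cells and 1.66% in KO cells for the BMP response, 0.14% (BMP-on) and 0.0116% (BMP-off) for KO against WT, and 0% in the interaction.

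*MRPS12*, a protein of the decoding center of the small subunit, had the largest rise among the called members. It was at 59.5, 47.2 and 60.8 CPM in KO with BMP-off and at 84.8, 76.6 and 78.7 CPM in KO with BMP-on. The groups were well apart, and *MRPS12* rose by 0.52 ± 0.09 on the log2 scale (1.43-fold, edgeR quasi-likelihood test, Benjamini-Hochberg adjusted p = 0.000502). In WT cells it was at 54.0, 60.3 and 62.9 CPM with BMP-off and at 72.0, 71.5 and 66.6 CPM with BMP-on, again without overlap, a log2 fold change of 0.25 ± 0.09 that did not pass (adjusted p = 0.146). Without KO BMP-off replicate 2 its log2 fold change in KO cells was 0.41.

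The other members that rose were 3 mitochondria-specific proteins of the large subunit and *MRPS11*, a bacterial-family protein of the small subunit platform. *MRPL53* was at 29.0, 24.0 and 29.9 CPM in KO with BMP-off and at 32.9, 36.0 and 36.1 CPM with BMP-on, a log2 fold change of 0.34 ± 0.08. *MRPL43* was at 41.1, 35.0 and 46.3 CPM and at 51.6, 51.3 and 50.1 CPM, a change of 0.32 ± 0.08. In all 3 of *MRPS12*, *MRPL53* and *MRPL43* the lowest of the 12 libraries was KO BMP-off replicate 2, and without it *MRPL53* and *MRPL43* were at 0.25 and 0.22, both still called.

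*MRPL52* was at 49.5, 41.7 and 51.7 CPM in KO with BMP-off and at 57.9, 56.5 and 54.0 CPM with BMP-on, a log2 fold change of 0.24 ± 0.07. *MRPS11* was at 19.3, 16.5 and 17.2 CPM and at 21.7, 21.2 and 19.8 CPM, a change of 0.24 ± 0.08. For both the groups did not overlap, but without KO BMP-off replicate 2 the changes were 0.15 and 0.19 and no longer passed (edgeR quasi-likelihood test, Benjamini-Hochberg adjusted p = 0.123 and 0.126). Exons of *MRPL43* overlap *TWNK* and *SEMA4G* on the opposite strand and those of *MRPL53* overlap *CCDC142* on the same strand. Of these 3 neighbors, *SEMA4G* was at 0.33 and *CCDC142* at 0.30 in the same comparison (adjusted p = 0.0941 and 0.0818), and *TWNK*, the mitochondrial DNA helicase, was at 0.02.

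The 3 members that fell were *MRPL11*, *MRPL1* and *MRPS35*. *MRPL11* was at 129, 124 and 125 CPM in KO with BMP-off and at 109, 102 and 108 CPM with BMP-on, and it fell by 0.24 ± 0.05 on the log2 scale (edgeR quasi-likelihood test, Benjamini-Hochberg adjusted p = 0.00128). It is the only member called in both WT and KO cells, and it was called in KO cells under each of 23 alternatives. Exons of *MRPL11* overlap *PELI3* on the opposite strand, which was at 0.21 (adjusted p = 0.286).

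*MRPL1*, of the mobile stalk of the large subunit, was at 49.6, 52.6 and 45.7 CPM in KO with BMP-off and at 39.1, 42.2 and 43.3 CPM with BMP-on. It fell by 0.25 ± 0.07 on the log2 scale. *MRPS35* was at 677, 705 and 641 CPM and at 595, 591 and 631 CPM, and it fell by 0.15 ± 0.05. Both groups were apart, yet without KO BMP-off replicate 2 the changes were −0.20 and −0.12 and did not pass (edgeR quasi-likelihood test, Benjamini-Hochberg adjusted p = 0.0541 and 0.0989). Across the members, BMP-on and BMP-off libraries did not overlap for 22 of 77 in KO cells and for 21 of 77 in WT cells, beside 35.8% and 23.9% of all genes tested.

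**Figure D4:**
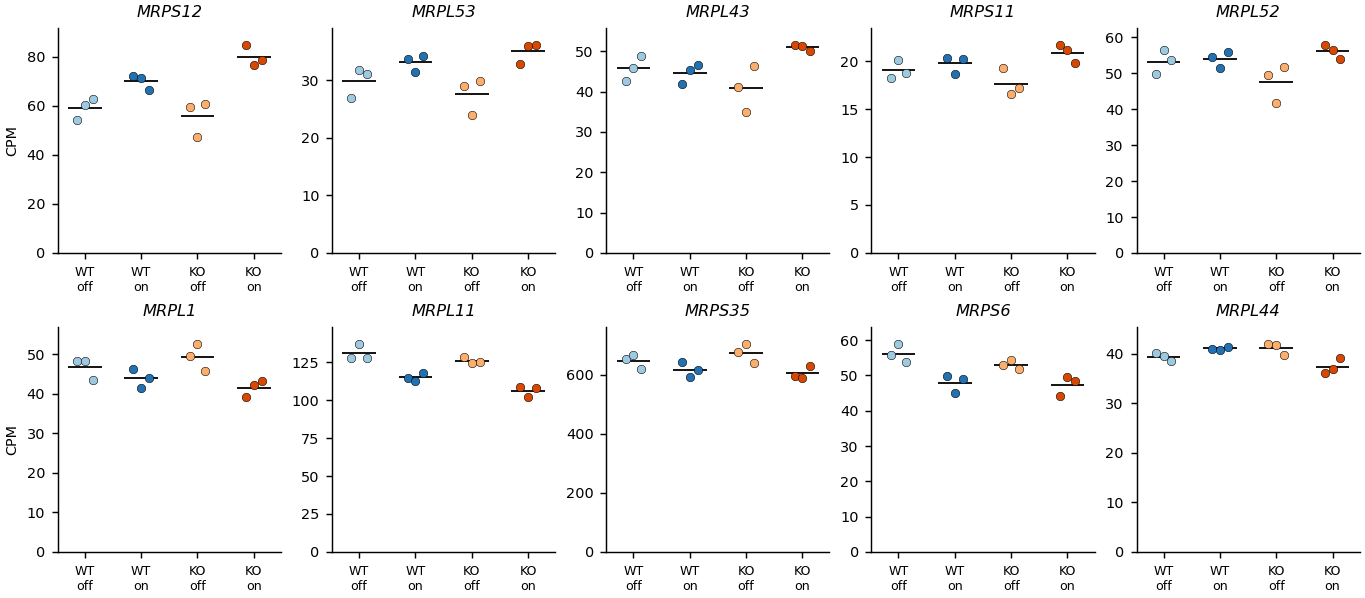
CPM of 10 members in each library (points, 3 per group) with the group mean (line), from 0. The upper row holds the 5 members that rose with BMP-on in KO cells. The lower row holds the 3 that fell, MRPS6, which fell in WT cells, and MRPL44, which was not called. MRPS12 runs from 47.2 to 60.8 CPM in KO with BMP-off and from 76.6 to 84.8 CPM in KO with BMP-on.

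Whether the BMP response differed between KO and WT was tested by the interaction, and 0 of 77 members passed, with 0.0931% of all genes called. The smallest p belonged to *MRPL43*, whose log2 response was −0.04 in WT cells and 0.32 in KO cells, a difference of 0.36 ± 0.12 (edgeR quasi-likelihood test, Benjamini-Hochberg adjusted p = 0.288). For *MRPL44* the responses were 0.06 and −0.14, a difference of −0.20 ± 0.08 (adjusted p = 0.356). The 95% interval of the difference lay within ±0.5 for 66 of 77 members. A response called in KO cells and not in WT cells is therefore not shown to differ between them for any member in this fit. *MRPL43* passed the interaction in 2 of 22 alternatives.

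The members chosen for other known roles did not pass in the BMP response of KO cells, although some did under other settings. *MRPL12*, a stalk protein that also associates with the mitochondrial RNA polymerase, was at 19.4, 13.9 and 20.7 CPM with BMP-off and at 24.2, 25.3 and 20.2 CPM with BMP-on, a log2 fold change of 0.37 ± 0.13 with overlapping groups (edgeR, Benjamini-Hochberg adjusted p = 0.0537). It was called in 6 of 23 alternatives, turned negative with each GC correction and was at 0.21 without KO BMP-off replicate 2. *MRPL58*, a peptidyl-tRNA hydrolase that became part of the large subunit, had a mean of 28.0 ± 0.841 CPM with BMP-off and 25.5 ± 0.788 CPM with BMP-on (SD, n = 3), a log2 fold change of −0.13 ± 0.06 that was called in 6 of 23 alternatives. Humans have 3 relatives of the bacterial S18 protein. In the same comparison *MRPS18A*, in the large subunit, was at 0.14 ± 0.08, *MRPS18B* at −0.08 ± 0.05 and *MRPS18C*, both in the small subunit, at −0.07 ± 0.10, and none passed, although *MRPS18B* was called lower in 4 of 23 alternatives. Their levels per length differed widely, with means of 15.5, 73.0 and 5.92 RPKM over the 12 libraries.

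The members' values followed the GC content of their transcripts, which runs from 33.5% to 66.7% over the 77 tested members with a median of 46.4% (48.1% for protein-coding genes tested). Within groups, Spearman's rho between a library's deviation from its group mean and GC content over the 77 members ran from −0.84 in KO BMP-off replicate 2 to 0.78 in KO BMP-off replicate 3, and over all genes from −0.60 to 0.58 in the same libraries. Over the members, rho was also −0.64 in KO BMP-on replicate 3, −0.61 in WT BMP-off replicate 1 and 0.59 in WT BMP-off replicate 3. Among the 25 members of highest GC content (52.1% to 66.7%), KO BMP-off replicate 2 was the lowest of the 12 libraries for 17. Among the 26 of lowest GC content (33.5% to 43.4%) it was the lowest for 0. *MRPL41*, with the highest GC content, was at 15.5, 8.64 and 18.6 CPM in KO with BMP-off and at 24.7, 20.3 and 21.8 CPM with BMP-on. Its log2 fold change of 0.65 ± 0.23 was the largest of any member and did not pass (edgeR quasi-likelihood test, Benjamini-Hochberg adjusted p = 0.0697). Without KO BMP-off replicate 2 it was at 0.40. Replicates of a group had the same treatment, so this trend runs within groups as well as between them.

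The fold changes carried the same trend. In the BMP response of KO cells the median log2 fold change was −0.07 over the 26 members of lowest GC content, −0.01 over the 26 in the middle and 0.13 over the 25 of highest GC content. Without KO BMP-off replicate 2 these medians were −0.02, −0.02 and 0.05. For KO against WT with BMP-off, which shares the KO BMP-off libraries, the order was the opposite, with 0.03, −0.04 and −0.10, and without that library it was −0.00, −0.05 and −0.00. Pearson's r between log2 fold change and GC content over the 77 members was 0.64 and −0.63, while for the BMP response of WT cells it was 0.45. For the KO to WT comparison with BMP-on it was 0.15. These describe genes that share libraries and carry no p.

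A correction for a smooth GC trend in each library, fitted over all genes, was therefore run as an alternative. For KO against WT it left 0 of 77 members called in the BMP-on state and 0 of 77 in the BMP-off state, and in the interaction 0 of 77, while the shares of all genes called were 7.3%, 0.553% and 1.37%. In the BMP response of KO cells it called 7 members as higher and 12 as lower, against 10.6% and 14.2% of all genes, and in WT cells 1 and 5, against 3.35% and 5.64%. Of the 8 members called in KO cells without the correction, 6 remained. *MRPL53* went to 0.12 and *MRPS35* to −0.08 (edgeR quasi-likelihood test, Benjamini-Hochberg adjusted p = 0.2 and 0.0838). *MRPS12* was at 0.30 in KO cells and, now also called, at 0.18 in WT cells.

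The members called lower only with the correction in KO cells were led by *MRPL36* and *MRPS34*, at 65.2% and 64.5% GC by the longest transcript. *MRPL36*, a small protein of the large subunit, was at −0.01 without the correction and at −0.45 with it. Its canonical transcript has 50.4% GC, whereas the correction used the longest. In KO cells *MRPL36* was at 6.32, 5.26 and 6.06 CPM with BMP-off. With BMP-on it was at 5.21, 5.54 and 6.80 CPM, so the groups overlapped. *MRPS34*, a mitochondria-specific small subunit protein, was at 0.05 without the correction and at −0.38 with it. After the correction Pearson's r with GC content over the members was −0.36 for the BMP response of KO cells and 0.23 for KO against WT with BMP-off, where it had been 0.64 and −0.63, so that the sign of the trend over the members turned with the correction. For KO against WT with BMP-on r went from 0.15 to −0.38, for the interaction from 0.56 to −0.41, and for the BMP response of WT cells from 0.45 to −0.04. Over all genes, Spearman's rho went from 0.45 to −0.03 and from −0.39 to −0.00.

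**Figure D5:**
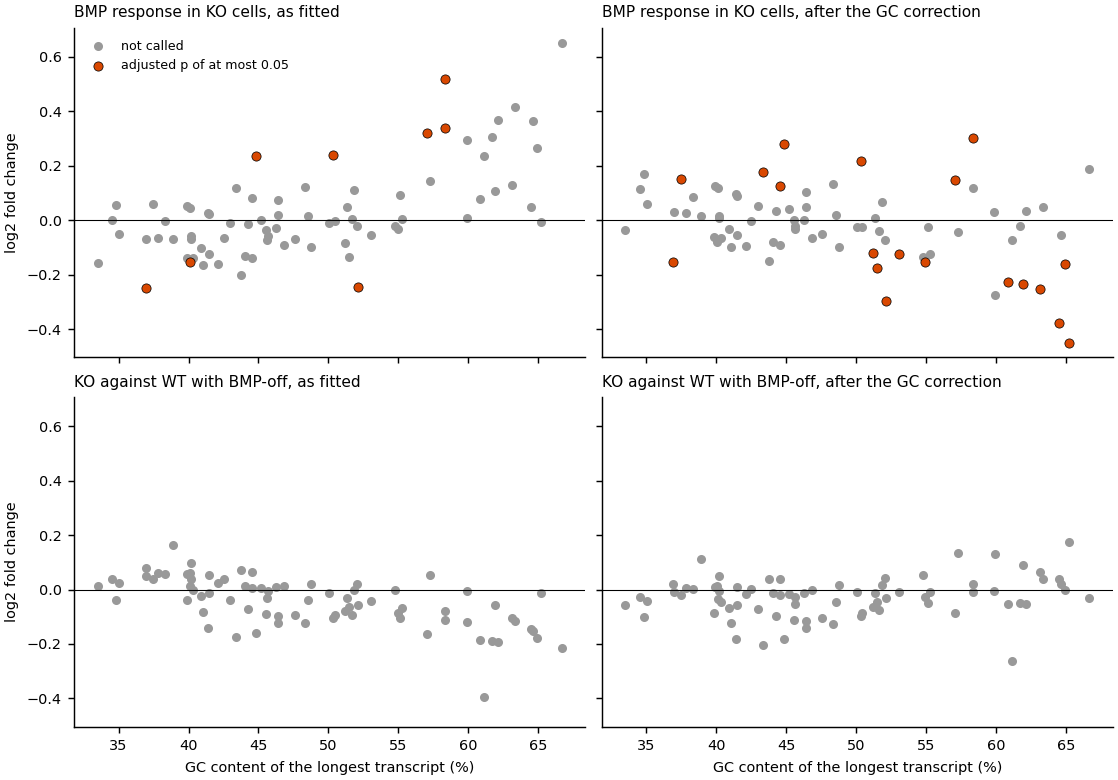
Log2 fold change of the 77 tested members (points) against the GC content of the longest transcript, for the BMP response of KO cells (upper) and KO against WT with BMP-off (lower), as fitted (left) and after the GC correction (right). Orange points have an adjusted p of at most 0.05. As fitted, r is 0.64 in the upper and −0.63 in the lower panel, and after the correction it is −0.36 and 0.23.

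Of the members, 26 lie head to head with another protein-coding gene whose start site is at most 1000 bases away, which is 33.8% of the tested members against 13.1% of all protein-coding genes tested. In the BMP response of KO cells 8 of these 26 neighbors were called, 5 lower and 3 higher, where 10.9% of all genes were lower and 11.1% higher. Those that fell were *NCAPD2* (beside *MRPL51*) at −0.31, *SKA3* (beside *MRPL57*) at −0.43, *EME1* (beside *MRPL27*) at −0.45, *MTBP* (beside *MRPL13*) at −0.43 and *MITD1* (beside *MRPL30*) at −0.31. In the same comparison their *MRPL* neighbors were at −0.06, 0.12, −0.01, −0.16 and 0.02. Those that rose were *PIERCE1* (beside *MRPS2*) at 0.84, *KLC4* (beside *MRPL2*) at 0.38 and *MRPS11* itself, beside *MRPL46*. *MRPS2* was at 0.30 (adjusted p = 0.0836) and *MRPL2* at 0.09. Without KO BMP-off replicate 2 *MITD1*, *KLC4* and *MRPS11* no longer passed. With all libraries, 0 of the 26 members were called together with their neighbor. *MRPS11* and *MRPL46* lie beside each other, so each counts both as a member and as a neighbor. The start sites of *MRPS11* and *MRPL46* are 320 bases apart, and the 2 genes were at 0.24 and −0.06. *MRPS12* shares its upstream region with *SARS2*, the mitochondrial seryl-tRNA synthetase, 181 bases away, which was at 0.25 ± 0.15 (adjusted p = 0.258).

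The rest of the mitochondrial translation system was read from lists compiled from general knowledge. For KO against WT, the 9 lists held 1 called gene of 119 tested, *MYC*, where 3.67% of all genes were called with BMP-on. *MYC* encodes a transcription factor that promotes ribosome and mitochondrial biogenesis. *MYC* was at 24.5 ± 0.898 CPM in WT and 30.4 ± 1.71 CPM in KO with BMP-on (SD, n = 3) and rose by 0.31 ± 0.07 on the log2 scale (edgeR quasi-likelihood test, Benjamini-Hochberg adjusted p = 0.0228). The call was lost in 4 of 23 alternatives, with 1 of KO BMP-on replicates 2 and 3 or WT BMP-on replicates 2 and 3 left out (adjusted p up to 0.122). With the GC correction 7 genes were called with BMP-on, against 7.3% of all genes, among them *SESN2* at 0.27 and *MYC*, both higher, and *RBFA*, *TFAM*, *PPRC1* and *YY1*, at −0.30, −0.16, −0.18 and −0.12. With BMP-off it called 0. Without the correction, none of the 13 tested genes of the integrated stress response, which mitochondrial stress can switch on, passed in either BMP state, and with it only *SESN2*, a stress-induced regulator of growth signaling, did. Its transcription factor *ATF4* was at a log2 fold change of 0.03 ± 0.06 with BMP-on and −0.06 ± 0.06 with BMP-off (SE).

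The 13 genes encoded in mitochondrial DNA, whose proteins the mitochondrial ribosome makes, had 0 calls for KO against WT. Their 95% intervals lay between −0.14 and 0.45 with BMP-on and between −0.29 and 0.32 with BMP-off. In the BMP response of KO cells 4 of the 13 rose, *MT-ND2* by 0.30 ± 0.06, *MT-ATP6* by 0.29 ± 0.07, *MT-ND1* by 0.27 ± 0.07 and *MT-CYB* by 0.23 ± 0.07, and 0 fell (edgeR quasi-likelihood test, Benjamini-Hochberg adjusted p = 0.00163, 0.0137, 0.0147 and 0.0204), where 11.1% of all genes rose. All 4 were also called with the GC correction, and without KO BMP-off replicate 2 all but *MT-CYB* were. The median over the 13 was 0.21. In WT cells 0 of the 13 passed, with a median of 0.06, and none passed the interaction.

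In the BMP response of KO cells the nuclear lists held calls in both directions, as all genes did (11.1% higher, 10.9% lower). Of the 25 calls in the 9 lists, 19 remained with the GC correction and 15 without KO BMP-off replicate 2. Of 5 mitochondrial ribosomal proteins with other names, *PTCD3* fell by 0.14 ± 0.05, a call lost in 16 of 23 alternatives. Of 25 assembly factors *DHX30*, *RCC1L* and *MRM1* rose, by 0.30, 0.20 and 0.36, and *RBFA*, which acts on the small subunit, fell by 0.30. With the GC correction *RCC1L* and *MRM1* were at −0.06 and −0.00, and *DHX30*, *PTCD3*, *IARS2* and *GABPB1* also lost their calls. Of 16 translation factors only *MTRFR*, a ribosome rescue factor, passed, and it fell by 0.39 ± 0.10. Mitochondrial aminoacyl-tRNA synthetases that fell included *LARS2*, by 0.17, and *IARS2*, by 0.14, and none rose.

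Of 9 genes for mitochondrial DNA expression *TFAM*, which packages mitochondrial DNA and starts its transcription, fell by 0.30 ± 0.06 and *MGME1*, a mitochondrial exonuclease, fell by 0.26 ± 0.07. Of 9 regulators of mitochondrial biogenesis *MYC* and *ESRRA* rose, by 0.40 and 0.64, and *YY1* and *GABPB1*, a subunit of the ETS factor GABP, fell by 0.14 and 0.17. Of 12 chaperones and proteases *DNAJA3* rose by 0.19, a call lost in 14 of 23 alternatives, and *HSPD1* fell by 0.18. Of 13 stress response genes tested *SESN2* rose by 0.48, and *ATF3*, *PSAT1* and *MTHFD2* fell by 0.29, 0.21 and 0.20. Without KO BMP-off replicate 2 the calls of *PTCD3*, *RCC1L*, *MRM1*, *RBFA*, *IARS2*, *YY1*, *GABPB1*, *DNAJA3* and *MTHFD2* were lost. In WT cells 0 genes of these 9 lists passed, and 14 of 119 had an unadjusted p under 0.05, against 15.3% of all genes. With the GC correction 5 were called in WT cells, among them *MALSU1*, *TRAP1*, *ATF3* and *PSAT1*, at −0.22, −0.23, −0.21 and −0.15.

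Some markers of cell types also moved with BMP. The summed level of 5 fibroblast markers was 13.7 to 20.1 CPM in WT and 11.4 to 19.5 CPM in KO with BMP-off, and 27.9 to 30.4 CPM in WT and 33.9 to 41.9 CPM in KO with BMP-on. *COL1A1* carried nearly all of it, and the other 4 did not exceed 0.65 CPM in any library. The summed level of 5 epithelial markers was 293 to 302 CPM in WT and 262 to 308 CPM in KO with BMP-off, and 311 to 331 CPM in WT and 314 to 370 CPM in KO with BMP-on. The keratins *KRT8* and *KRT18* made up most of that sum. Of the 4 epithelial markers tested, the log2 fold change was positive for 2 in WT cells and for 1 in KO cells. *KRT8* rose by 0.61 in KO cells, whereas *EPCAM*, an epithelial adhesion protein, fell by 0.56 in WT cells and by 0.61 in KO cells. Leukocyte and endothelial markers summed to at most 1.05 and 1.81 CPM in any library. Of 3 endothelial markers tested *CDH5*, an endothelial cadherin, fell in KO cells, from a mean of 0.355 to 0.069 CPM, and *VWF* and *PECAM1* were at −1.16 and −0.59 without passing. The part of these markers in the members' values was not tested.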

How the data were processed

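The RNA-seq counts came from 12 libraries of MIB1-iKO cells, 3 replicates for each of 4 groups taken from the sample labels. Per the study's methods, reads from ribosomal RNA were discarded, GSNAP aligned what was left to GRCh38, and HTSeqGenie counted exonic reads for each RefSeq gene. The deposited counts are whole numbers per Ensembl identifier without normalization. The authors' second table holds RPKM values, scaled between libraries by them, and it served here for levels and for 1 alternative. Which of 2 library kits named in the protocol was used is not given in the sources used here, nor is whether strand was used.

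Symbols, positions and transcript GC content came from GENCODE v44, and promoter windows from RefSeq (GRCh38.p14), with 9 members unmatched. The test was the quasi-likelihood test of edgeR 4.0.16 (R 4.3.3), robust and fitted over the 12 libraries together after TMM scaling and filterByExpr, with Benjamini-Hochberg adjustment within each of 5 comparisons over all genes tested. Called genes had an adjusted p of 0.05 or less. Intervals are 95% intervals of the fit. The labels do not say that replicates were separate cultures, so p values measure the spread between these libraries, which may be technical. The GC correction was a loess trend per library, with a span of 0.4, on GC content, taken from each gene's longest transcript.

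Alternatives used DESeq2 1.42.0, limma-voom (limma 3.58.1) on quantile-normalized values, library size scaling, no filter, limma on log2(RPKM + 1), only the groups compared, the GC correction alone and with transcript length, a replicate block with and without GC, the further fold threshold and each library left out. A GC correction by the canonical transcript was chosen after seeing the data. Members named are up to 5 of the largest called changes in each direction per comparison, otherwise the 2 with the smallest p, the 3 highest and 3 lowest by RPKM, and 6 chosen for their roles. Other lists gave up to 2 genes each by p, and further genes named from them, *MRPL20*, *MRPL41*, *MRPL36*, *MRPS34*, neighboring genes and markers were chosen after their values were seen. The members and lists were chosen with earlier results of these data known. One result among the other lists is not reported here.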

Additional observations from a re-analysis of the deposited data

How the results depend on the processing

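For KO against WT with BMP-off, 0 members were called under each setting run. With BMP-on, 2 were called with the GC and length correction (*MRPS12* at 0.15 and *MRPL11* at −0.14) and 3 when only the groups compared were fitted. In the interaction 1 was called with no filter on low counts and 1 without KO BMP-off replicate 3, and *MRPL43* was called in 2 of 22 alternatives. The number called in the BMP response of KO cells was 19 with the GC correction, 18 with GC and length, 16 with the canonical GC correction (chosen after seeing the data), 19 with limma on log2(RPKM + 1), 13 with no filter, 5 with only the groups compared, 16 with the replicate block and GC correction together and 0 with the further fold threshold. It ran from 4 without KO BMP-on replicate 1 to 22 without KO BMP-off replicate 3, and was 5 without KO BMP-off replicate 2 or KO BMP-on replicate 2. In WT cells it was 6 with each of the 4 GC corrections, 4 with only the groups compared, 1 with limma-voom, 0 with the fold threshold and 0 with the replicate block, and it ran from 0 (without any of 7 libraries, KO BMP-off replicate 1 among them) to 4 without KO BMP-off replicate 2. The median log2 fold change of the members in KO cells was −0.038 with limma on RPKM and ran from −0.040 to 0.0075 with 1 library left out. For KO against WT with BMP-off it then ran from −0.040 to −0.0063, and for the interaction from 0.024 to 0.070, with 0.029, 0.027, 0.030 and 0.029 under the GC, GC and length, canonical GC, and block with GC corrections. Under these same 4 corrections, in KO cells, *MRPL12* turned to −0.055, −0.044, −0.050 and −0.058, *MRPS18A* to −0.042, −0.031, −0.028 and −0.042, *MRPS18C* to 0.015, 0.0094, 0.035 and 0.017 and *RCC1L* to −0.055, −0.061, −0.048 and −0.054. *MRM1* turned to −0.0018, −0.0031 and −0.00102 under all but the canonical one. *MRPL11*, *MRPL43* and *MRPS12* were called in KO cells under each of 23 alternatives, the fold threshold not counted. The cause of these differences was not tested. Replicate numbers did not pair libraries, since the deviations of same-numbered libraries correlated above 0.1 in 1 of 18 pairs and 2 of 12 libraries correlated best with their own number. With the replicate block 11 members were called in KO cells, 8 higher and 3 lower. With 3 libraries per group the median SE over the members in KO cells was 0.061, and the smallest called change was −0.15 (*MRPS35*).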
